A study of Mus musculus with 12 samples.

Results

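Homeodomain proteins pattern the retina and keep its cell types, and most of them bind a core that reads TAAT. The bases after that core are read partly through residue 50 of the homeodomain. A lysine there (K50, as in CRX and OTX2, which drive photoreceptor genes) favours TAATCC, and a glutamine (Q50, as in RAX and the LHX proteins) favours TAATTA or TAATTG. Lone Q50 sites are described here: 193 oligos in 193 regions, each with a single Q50 site inactivated, of 14987 elements in the library. They were chosen by name alone, as elements named for a numbered Q50 change in regions that have no element with all Q50 sites changed together. Each was set against the unmodified element of its region, called its parent, and 75 of the regions also had an element with a K50 site changed (called K50 regions) while 118 had none.

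The assay was CRE-seq, in which a candidate regulatory element is placed beside a promoter and read out by counting barcodes in the reporter transcript and in the plasmid. Elements of 100 bp stood in front of the rhodopsin promoter (pRho) or the Crx promoter (pCrx), both photoreceptor promoters, driving the red fluorescent protein DsRed with 13-bp barcodes. The retinas all came from newborn (postnatal day 0) wild-type CD1 mice; they received 30 µg of 1 library with 30 µg of a CAG-GFP plasmid by electroporation and were kept whole as explants for 8 days. A replicate pooled 5 retinas and gave a cDNA and a DNA library; with 3 replicates for either promoter there were 12 libraries. Every cell type that took up the plasmid can add to the readout, and the values are means over the pool.

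The library totals were 31198771 to 36500857 reads for DNA and 24726849 to 31842705 for cDNA. In any 1 library a member or its parent had at least 105 DNA reads and at least 23 cDNA reads, and the median over members of the smallest DNA count was 1532. Of the members, 63 had 6 barcodes and 130 had 7.

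Every member differed from its parent by a single base, which became G. The 6-base site given here was cut around that base so that it is the third, by definition. The base was an A in 189 members, a T in 3 and a C in 1. The site read TAATTA in 59 members, TAATTG in 42, CAATTA in 42, AAATTA in 16 and TAATTT in 10, and 24 sites had other spellings. The parents of those 24 held none of the first 5 hexamers on either strand, and they are Q50 sites by the element's name only. The CAATTA class is the TAATTG class read on the other strand, and likewise the AAATTA class for TAATTT, so there the change fell in the last base of TAAT rather than the third. The word lone holds for the designed changes more than for the letters: 3 changed elements still had one of the hexamers of the first 5 classes elsewhere, and 158 kept a TAAT. Those hexamers occur in 17.8% of the 1270 unmodified elements of the library, on either strand. The parents' GC content was 32% to 61% with a median of 47% in both kinds of region.

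The pairs below carry the results that follow. Each is 30 bases of the parent and of the changed element, 5′ to 3′ on the element's strand, with the 6-base site in capitals. Coordinates are those of the whole element in mm9, and changes count from 1 at its first base. The first pair had the largest fall on pCrx and the second the largest fall on pRho. The third had the largest rise on pRho and the fourth the largest rise on pCrx. The fifth fell on pRho together with the K50 change of its region. The last had the most active parent on both promoters and passed on neither.

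chr1:134617979-134618078, parent: ggaagccacaggTAATTAggacagcttaga
with A63G: ggaagccacaggTAGTTAggacagcttaga
chr1:66733021-66733120, parent: atcttgtgctgtTGATTGacacctctcaac
with A74G: atcttgtgctgtTGGTTGacacctctcaac
chr15:9011036-9011135, parent: tttgggaaagggTAATTGgctttgcatcag
with A31G: tttgggaaagggTAGTTGgctttgcatcag
chr9:45613185-45613284, parent: atgccattgggcTAATTAaaactttcagga
with A65G: atgccattgggcTAGTTAaaactttcagga
chr6:61161535-61161634, parent: tgcagtaggttgTAATTAggccggactgtg
with A19G: tgcagtaggttgTAGTTAggccggactgtg
chr14:52727841-52727940, parent: tcagcttcttatAAATTAatcctcctttaa
with A38G: tcagcttcttatAAGTTAatcctcctttaa

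Loss of a lone Q50 site lowered activity in more elements than it raised it, mostly by a small amount, and a few elements changed several-fold in either direction. Activity is the log2 ratio of cDNA to DNA reads, each scaled to its library, so 0 is near the typical element of the library; an effect is the changed element minus its parent. The mean effect over the 193 members was -0.19 on pRho (SD 0.60 over members; SD 0.007 over the 3 replicates), which leaves 87.5% of the parent's activity. On pCrx it was -0.23 (SD 0.63 over members; SD 0.007 over replicates), or 85.1%. The sign was the same in all 3 replicates on both promoters, for which the exact sign-flip permutation test gives p = 0.25, the smallest that 3 replicates allow. Over all 13717 modified elements the mean effect was -0.23 on pRho and -0.32 on pCrx.

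By edgeR's quasi-likelihood test of the summed barcode counts, with Benjamini-Hochberg adjustment over all 13717 pairs and a threshold of 0.05, 84 members fell and 33 rose on pRho. Over all pairs 43.7% fell and 16.3% rose, so the members' shares of 43.5% and 17.1% were near the background. On pCrx 72 fell and 29 rose, or 37.3% and 15.03%, against 43.7% and 10.6% of all pairs. A stricter rule, used below as "passed both tests", also asks limma, with the barcodes as units, for an adjusted p under 0.05. By it 34 members fell and 7 rose on pRho (17.6% and 3.63%, against 24.7% and 5.83% of all pairs). On pCrx 46 fell and 11 rose (23.8% and 5.70%, against 28.6% and 4.63%). The calls by edgeR alone do not take in the spread between barcodes, which was larger: the median SE of a member's effect was 0.11 on pRho and 0.14 on pCrx, against 0.21 and 0.22 over barcodes.

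The replicate values of parent and changed element did not overlap in 122 members on pRho and in 107 on pCrx. The share over all pairs was not counted, so these counts have no background to be read against. Mean effects below -1 were more numerous than those above 1, with 14 (7.25%) against 3 (1.55%) on pRho and 21 (10.9%) against 6 (3.11%) on pCrx. The whole library had the same imbalance, at 10.2% against 2.61% of all pairs on pRho and 14.3% against 2.58% on pCrx. At the other end, 75 members (38.9%) on pRho and 70 (36.3%) on pCrx had a mean effect within 0.25 of 0, against 39.4% and 34.4% of all pairs. The quartiles of the effect were -0.43 and 0.12 on pRho, and those on pCrx were -0.52 and 0.09.

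Of the spellings as read on the element's strand, TAATTA and TAATTG had the lowest mean effects. Those for TAATTA were -0.28 (SE 0.08 over 59 members) on pRho and -0.31 (SE 0.09) on pCrx, and those for TAATTG were -0.28 (SE 0.11 over 42 members) and -0.30 (SE 0.11). For CAATTA they were -0.13 (SE 0.06 over 42 members) and -0.14 (SE 0.09). The change fell in the third base of TAAT in TAATTG and in its last base in CAATTA. The site also lies on opposite strands in these classes, so base and orientation cannot be told apart. TAATTG minus CAATTA was -0.15 on pRho (SD 0.06 over replicates, SE 0.12 over elements) and -0.16 on pCrx (SD 0.04 and SE 0.14). It was below 0 in every replicate on both promoters, but not far beyond its SE over elements. On pRho 9 of the 42 TAATTG members (21.4%) and 2 of the 42 CAATTA members (4.76%) fell by both tests, against 24.7% of all pairs. On pCrx the counts were 12 (28.6%) and 9 (21.4%), against 28.6% of all pairs.

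The rarer spellings were more mixed. AAATTA had mean effects of -0.20 (SE 0.11 over 16 members) on pRho and -0.13 (SE 0.09) on pCrx. TAATTT had 0.03 (SE 0.10 over 10 members) and -0.13 (SE 0.13). The 24 other sites had -0.02 (SE 0.17) and -0.18 (SE 0.13), with an SD over members on pRho of 0.86, above the 0.33 to 0.69 of the other classes. Among those 24, 7 fell (29.2%) and 11 rose (45.8%) on pRho, against 43.7% and 16.3% of all pairs. Of these 6 (25%) and 4 (16.7%) passed both tests, against 24.7% and 5.83%. The 87 changes at positions 34 to 67 minus the 106 nearer the ends gave a difference in mean effect of 0.04 on pRho (SE 0.08 over elements) and of -0.13 on pCrx (SE 0.09).

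Members of regions with and without a changed K50 site were then compared, to ask whether a Q50 site matters as much beside CRX-type sites as without them. The parents of the 2 kinds were alike in mean activity, 0.01 against 0.02 on pRho and 0.27 against 0.25 on pCrx. The mean effect on pRho was -0.07 (SE 0.07 over 75 members) in K50 regions and -0.27 (SE 0.05 over 118) in the others. The difference was 0.21, 0.18 and 0.23 in replicates 1, 2 and 3, with a mean of 0.21 (SD 0.03 over replicates, SE 0.09 over regions). On pCrx the means were -0.14 (SE 0.07) and -0.29 (SE 0.06). There the difference was 0.10, 0.12 and 0.23, with a mean of 0.15 (SD 0.07, SE 0.09), and the difference of the medians was 0.05. Both differences were above 0 in every replicate (exact sign-flip p = 0.25 each).

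In calls, 26 of 75 members fell (34.7%) and 19 rose (25.3%) on pRho in K50 regions. Elsewhere 58 of 118 fell (49.2%) and 14 rose (11.9%), against 43.7% and 16.3% of all pairs. On pCrx 21 fell (28%) and 14 rose (18.7%) in K50 regions. Elsewhere 51 fell (43.2%) and 15 rose (12.7%), against 43.7% and 10.6% of all pairs. By both tests the pRho counts were 11 falls (14.7%) and 4 rises (5.33%) in K50 regions and 23 (19.5%) and 3 (2.54%) elsewhere. All pairs had 24.7% and 5.83%. The pCrx counts by both tests were 14 falls (18.7%) and 6 rises (8%) in K50 regions and 32 (27.1%) and 5 (4.24%) elsewhere. There all pairs had 28.6% and 4.63%. Regions with a changed K50 dimer, a pair of sites in opposite orientation, stood highest: 22 members there had mean effects of 0.01 (SE 0.14) on pRho and 0.03 (SE 0.12) on pCrx. The 53 members of regions with single K50 sites only had -0.09 (SE 0.08) and -0.21 (SE 0.09). Without any region that has a dimer element, 164 regions remained, 53 of them K50 regions. There the difference between K50 and other regions was 0.18 on pRho and 0.065 on pCrx. The 53 minus all 118 others on pCrx gave -0.005, 0.06 and 0.19 in the replicates, so it was not above 0 in each.

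Having no K50 element is a property of the library and follows the sequence only in part. Of the 118 regions without one, 68 (57.6%) held a K50-like hexamer on some strand, and so did 72 of the 75 K50 regions. Counted as such, on both strands, were TAATCC (the CRX-type site), its relative TAATCT (with a final T) and its relative TAAGCC (with G for the last T of the core). Of all 1270 unmodified elements 92.3% held one. Split by those letters instead, the difference was 0.12 on pRho and 0.18 on pCrx. The 50 regions with neither a K50 element nor such letters had mean effects of -0.29 (SE 0.08) on pRho and -0.40 (SE 0.09) on pCrx. The 68 with such letters but no K50 element had -0.26 (SE 0.07) and -0.21 (SE 0.07).

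The contrast differed in size between spellings, and these differences were not tested. Without a K50 element, 33 members with TAATTA had mean effects of -0.43 (SE 0.08) on pRho and -0.47 (SE 0.11) on pCrx. On pRho 19 of them fell (57.6%) and 0 rose by edgeR; at an unadjusted p under 0.05 edgeR and limma over barcodes also gave 0 rises, as did DESeq2's adjusted p. On pCrx 21 fell (63.6%) and 2 rose. By both tests 11 fell on pRho (33.3%) and 12 on pCrx (36.4%). Their parents were more often strong: 22 of the 33 lay above the pRho median of unmodified elements. Of these 22, 15 fell on pRho (68.2%) and 0 rose, with 8 falling by both tests (36.4%). Of all modified elements with such parents 55.2% fell on pRho and 5.40% rose, with 34.2% falling by both tests. Of the 11 at or below that median 4 fell (36.4%), against 29.4% of all modified elements with parents there. Above the pCrx median 14 of 19 fell on pCrx (73.7%), with 9 by both tests (47.4%). Of all modified elements with parents there 62.1% fell on pCrx, with 44.5% by both tests. At or below it 7 of 14 fell (50%), against 18.6%. In K50 regions the 26 members with TAATTA had -0.08 (SE 0.14) and -0.11 (SE 0.13). Of them 9 fell (34.6%) and 7 rose (26.9%) on pRho, against 43.7% and 16.3% of all pairs. On pCrx 8 fell (30.8%) and 4 rose (15.4%), against 43.7% and 10.6%. The difference was 0.35 on pRho (SD 0.02 over replicates, SE 0.16 over regions) and 0.36 on pCrx (SD 0.08, SE 0.17). For TAATTG it was -0.10 (SE 0.21) and -0.02 (SE 0.22), and for CAATTA 0.09 (SE 0.14) and 0.02 (SE 0.21). For the rarer spellings pooled (19 members against 31) it was 0.44 (SE 0.17) and 0.20 (SE 0.15). Parents moved with this split: the TAATTA parents had a mean activity of -0.09 on pRho and 0.10 on pCrx in K50 regions, and 0.38 and 0.36 in the others.

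The pRho contrast was then taken apart by the strength of the parent. Among members whose parent was above the median of all unmodified elements on pRho, the mean effect was -0.38 (SE 0.08 over 40) in K50 regions and -0.36 (SE 0.06 over 61) in the others. Of these 1 (2.5%) and 3 (4.92%) rose, against 5.40% of all modified elements with such parents. Among members with parents at or below it, the means were 0.29 (SE 0.08 over 35) and -0.17 (SE 0.09 over 57), a difference of 0.47 (SD 0.06 over replicates, SE 0.12 over regions). In those weak K50 regions 18 of 35 members rose (51.4%) and 6 fell. In the weak regions without a K50 element 11 of 57 rose and 23 fell. For all modified elements with parents at or below the median 30.0% rose and 29.4% fell. By both tests 4 rose and 0 fell of the 35 (limma over barcodes gave 1 fall at an unadjusted p under 0.05), against 3 and 8 of the 57. Those 4 rises (11.4%) are at the background of 11.4% of all modified elements with such parents, of which 12.7% fell by both tests. The difference between weak and strong parents was not tested.

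For TAATTA the same split gave 0.00 above the median (SE 0.17, 14 against 22 members) and 0.70 at or below it (SE 0.22, 12 against 11). A parent's reads enter both its activity and the effect, and the weak K50 parents were weaker, with a mean of -1.17 against -0.91. Split by the parent's activity on pCrx instead, the pRho difference was 0.17 above the median and 0.23 at or below it. Above the median the means were -0.20 (SE 0.08) in K50 regions and -0.36 (SE 0.06) in the others. At or below it they were 0.05 (SE 0.11) and -0.18 (SE 0.08). By this ranking the difference was above 0 in both, with SEs of the means that were not small beside it. On pCrx itself the split gave 0.19 above the median (SE 0.13, 35 against 58) and 0.09 at or below it (SE 0.11, 40 against 60). By the parent's pRho activity the pCrx difference was 0.038 above and 0.29 at or below.

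Mean effects on pCrx were lower where the parent was more active. With members ranked by the parent's activity on pRho and cut into equal groups, the mean pCrx effect was 0.15 in the lowest group, -0.31 in the middle one and -0.53 in the highest. All modified elements, cut at the same levels, gave -0.01, -0.32 and -0.62. Ranked by activity on pCrx, the mean pRho effect was 0.04, -0.31 and -0.31, against -0.07, -0.31 and -0.28 for all. The members' order was that of the whole library. The promoters share barcodes, so the ranking is not wholly independent of the effect.

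Changing a lone Q50 site lowered activity less, on average, than changing a K50 site of the same region. In 70 regions with both, the mean effect of the Q50 change was -0.07 on pRho, against -0.37 for the region's single K50 changes (96 elements). The Q50-changed element was more active by 0.28, 0.29 and 0.33 in the 3 replicates, a mean of 0.30 (SD 0.03 over replicates, SD 0.60 over regions), and was the higher one in 51 of 70 regions. On pCrx the means were -0.17 and -0.36, the difference was 0.19 (SD 0.04 over replicates, SD 0.69 over regions; median difference over regions 0.09), and the Q50-changed element was higher in 38 of 70. Against the element with all K50 sites changed, in 25 regions, it was higher by 0.59 (SD 0.02) on pRho and by 0.39 (SD 0.06) on pCrx. All these differences had the same sign in every replicate (exact sign-flip p = 0.25 each).

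The order was the same across the library. Over all 1264 single K50 changes the mean effect was -0.36 on pRho and -0.45 on pCrx, so lone Q50 changes were higher by 0.17 (SD 0.02 over replicates, SE 0.05 over elements) and 0.22 (SD 0.04, SE 0.05). The 36 Q50 changes in regions with several Q50 sites had mean effects of 0.10 on pRho and 0.05 on pCrx. Lone ones were lower by these means, with differences of -0.29 (SD 0.09, SE 0.14) and -0.28 (SD 0.08, SE 0.15). The parents of those 36 were less active, with means of -0.55 on pRho and -0.11 on pCrx against 0.02 and 0.26, and their part in the difference was not tested.

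Effects on the promoters were related, with clear exceptions. Across the 193 members Pearson's r between the pRho and pCrx effects was 0.594 and Spearman's rho 0.593, a description over elements that share sequence and barcodes. The sign was the same in 138. Neither this count nor the joint counts that follow were set against all pairs, so the library's own share is not known here. By both tests 21 members fell on both promoters, 1 rose on both, 0 passed in opposite directions (at an unadjusted p under 0.05, edgeR gave 6 and limma over barcodes 0) and 117 passed on neither; by edgeR alone 55 fell on both, 15 rose on both and 5 passed in opposite directions. The mean pCrx effect was lower than the pRho one by little, at -0.04 (exact permutation test of 3 against 3 replicates, p = 0.1, the smallest possible).

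Tested as a difference within edgeR, 37 members (19.2%) were lower on pCrx and 30 (15.5%) higher, against 23.9% and 15.2% of all pairs. By both tests 14 (7.25%) were lower and 6 (3.11%) higher, against 10.7% and 3.86%. The shares were below or near the background.

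The largest fall on pCrx was at chr1:134617979-134618078, where A63G breaks a TAATTA that holds the parent's only TAAT letters, on both strands. On pCrx the parent had 2.57, 2.49 and 2.01 in replicates 1, 2 and 3, and the changed element 0.22, -0.32 and -0.21. The groups stood far apart, and the effect was -2.46 ± 0.15 (SE), a 5.48-fold loss (edgeR, adjusted p = 3.42e-13; limma over barcodes, adjusted p = 1.13e-07). On pRho the parent had 1.49, 1.44 and 1.53 and the changed element 0.47, 0.59 and 0.33, again without overlap, for an effect of -1.02 ± 0.10 (edgeR adjusted p = 9.65e-13). This parent was also among the 3 most active on pCrx, chromosome 18 aside.

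TAATTA at chr2:127082583-127082682 behaved alike: A51G took pCrx activity from 1.86, 1.66 and 1.52 to -0.05, -0.14 and -0.27. Its effects were -1.84 ± 0.12 on pCrx and -0.79 ± 0.10 on pRho. Neither of these regions had a K50 element or a K50-like hexamer.

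TAATTG at chr4:131409701-131409800, in a K50 region, also lost more on pCrx. There A57G lowered activity from 1.81, 1.83 and 1.76 to -0.32, -0.19 and -0.14, an effect of -2.02 ± 0.11, against -0.90 ± 0.10 on pRho. The K50 change in the same element gave -1.81 ± 0.12 on pCrx and -0.69 ± 0.10 on pRho and the 2 changed elements were not tested against each other. CAATTA at chr4:102446572-102446671 fell on pCrx from 2.07, 2.40 and 2.40 to 0.71, 0.87 and 0.65 with A72G (-1.55 ± 0.13). Its parent was among the 3 most active on pRho, chromosome 18 aside, and there the effect was -0.42 ± 0.10 by edgeR but 0.13 over barcodes (limma adjusted p = 0.89).

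The largest fall on pRho came from a site outside the canonical spellings. At chr1:66733021-66733120, A74G in TGATTG took pRho activity from 1.10, 1.36 and 1.18 to -1.10, -0.96 and -1.24. The groups were far apart, with an effect of -2.31 ± 0.10, a 4.96-fold loss (edgeR adjusted p = 3.99e-26). On pCrx it went from 1.33, 1.37 and 1.28 to -0.01, 0.11 and -0.08 (-1.32 ± 0.11). No TAAT was lost by this change.

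The CAAATA site at chr5:134266758-134266857 was the only site named among the 5 largest falls of either promoter that was on both lists. A72G changed pRho activity from -0.78, -0.69 and -0.50 to -3.51, -2.70 and -2.70 (-2.26 ± 0.19) and pCrx activity from 0.12, 0.11 and 0.35 to -1.43, -1.51 and -1.92 (-1.82 ± 0.18). Its count of TAAT was the same before and after. As few as 115 cDNA reads stood behind a value here.

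TAATTG at chr11:97224836-97224935 fell on pRho from 0.94, 0.88 and 0.92 to -0.86, -0.99 and -1.04 with A77G (-1.88 ± 0.13), and on pCrx by edgeR's effect of -1.19 ± 0.17. The K50 change of this region gave -0.49 ± 0.10 and -0.79 ± 0.15, the smaller loss on pRho. TAATTA at chr6:61161535-61161634 fell on pRho from 0.52, 0.43 and 0.22 to -1.33, -1.51 and -1.43 with A19G (-1.81 ± 0.13). The K50 change there gave -2.02 ± 0.13, and all K50 sites together gave -1.96 ± 0.13, all 3 close to each other. On pCrx the Q50 effect was -0.46 ± 0.14.

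TAATTG at chr9:47587488-47587587 had an effect on 1 promoter. With A75G pRho activity went from -0.48, -0.73 and -0.88 to -2.31, -2.24 and -2.38 (-1.63 ± 0.12), while on pCrx the values were -0.61, -0.51 and -0.37 before and -0.62, -0.76 and -0.50 after (-0.13 ± 0.14, edgeR adjusted p = 0.44). The pCrx values overlapped.

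The largest rise was at chr15:9011036-9011135, where A31G in TAATTG removes the parent's only TAAT. On pRho the parent had -1.83, -2.43 and -2.18 and the changed element 0.17, 0.09 and 0.15, so a weak element came near the level of the typical one. The effect was 2.27 ± 0.13, a 4.82-fold gain (edgeR adjusted p = 9.42e-22; limma over barcodes, adjusted p = 2.7e-05). On pCrx it was 0.53 ± 0.16, from -1.07, -1.44 and -1.01 to -0.61, -0.66 and -0.61.

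The other named rises on pRho were also in weak parents. TAATCA at chr5:102451137-102451236 went from -1.80, -1.45 and -1.75 to -0.73, -0.52 and -0.55 with A54G (1.06 ± 0.12). On pCrx its parent was active (1.40, 1.38 and 1.33) and the Q50 effect was 0.22 ± 0.11, while the region's K50 changes gave -0.86 ± 0.11 and -0.95 ± 0.12 there and -0.01 ± 0.12 and 0.12 ± 0.13 on pRho. The Q50 change passed as a rise on pRho and the K50 changes as falls on pCrx, and the difference between them was not tested.

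AAATTA at chr13:94686253-94686352 rose on pRho from -0.73, -0.69 and -1.02 to 0.28, 0.09 and 0.17 with A20G (0.99 ± 0.11), and the K50 change of its region gave 1.10 ± 0.11. CAATTT at chr19:29588019-29588118 rose on pRho from -1.38, -1.09 and -1.32 to -0.39, -0.32 and -0.49 with A41G (0.85 ± 0.12). Its parent was active on pCrx, at 1.45, 1.66 and 1.68, where the effect was -0.23 ± 0.12 and did not pass. TAAGTG at chr5:106174055-106174154 had -2.12, -1.92 and -2.58 on pRho before A14G and -1.56, -1.29 and -1.35 after it (0.80 ± 0.16). In these 3 elements the replicate values before and after did not overlap on pRho.

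On pCrx the largest rise was TAATTA at chr9:45613185-45613284, in a K50 region whose parent was the weakest of all members on pRho. A65G took pCrx activity from -3.34, -2.37 and -2.72 to -1.03, -0.97 and -0.90 (1.79 ± 0.24, a 3.45-fold gain). On pRho it went from -4.56, -3.73 and -3.86 to -3.51, -2.40 and -2.44 (1.33 ± 0.24 by edgeR; limma over barcodes, adjusted p = 0.52). The K50 change 18 bp away gave 2.02 ± 0.24 on pCrx. As few as 53 cDNA reads stood behind a value here.

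TAATTA at chr5:137517461-137517560, 3 bp from the changed base of a K50 site, was similar. A76G took pCrx activity from -1.75, -2.17 and -1.86 to -0.75, -0.81 and -0.94 (1.09 ± 0.16), and the K50 change gave 2.08 ± 0.16. In TAATTG at chr19:59056237-59056336, A54G took it from -0.34, -0.53 and -0.67 to 0.33, 0.46 and 0.42 (0.92 ± 0.12), and the K50 changes gave 1.26 ± 0.11 and 0.74 ± 0.12. In these regions the Q50 and the K50 changes both passed as rises on pCrx; both effects are measured from the same parent. TAATTG at chr2:71729701-71729800 went on pCrx from -2.07, -2.86 and -1.60 to -0.91, -1.36 and -0.85 with A44G (1.05 ± 0.27), while its pRho effect of -0.14 ± 0.15 did not pass. CAATTA at chr10:5291797-5291896 went on pCrx from -0.91, -1.41 and -1.03 to -0.09, -0.16 and -0.15 with A45G (0.96 ± 0.17).

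Among the most active parents the Q50 change had small effects in some and large ones in others. AAATTA at chr14:52727841-52727940 stands 4 bp from the changed base of a K50 site. Its parent, the most active of all members on both promoters, had 2.18, 2.47 and 2.23 on pRho and 2.65, 2.93 and 2.73 on pCrx. After A38G the values were 2.07, 2.11 and 2.26 on pRho and 2.34, 3.01 and 2.71 on pCrx. They overlapped those of the parent, with effects of -0.15 ± 0.09 and -0.08 ± 0.13 (edgeR adjusted p = 0.171 and 0.631). The K50 change of this element gave -0.36 ± 0.12 on pRho and -0.64 ± 0.12 on pCrx.

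CAATTA at chr5:44472039-44472138, with no K50 element, was another: the pCrx values were 2.44, 2.44 and 2.29 before A29G and 2.21, 2.55 and 2.22 after it (-0.06 ± 0.12). By contrast, TAATTG at chr10:80876714-80876813, the parent with the second highest pRho activity, had 2.15, 2.01 and 2.38 before A50G and 1.80, 1.88 and 1.92 after (-0.31 ± 0.10 by edgeR; limma over barcodes, adjusted p = 0.149). It fell on pCrx by both tests (-0.41 ± 0.13; edgeR adjusted p = 0.0127, limma over barcodes, adjusted p = 0.0367), and its K50 change gave -0.67 ± 0.13 there.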

How the data were processed

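Barcodes were sequenced from cDNA and DNA of 3 replicate pools per promoter after 21 and 6 cycles of PCR, per the labels' protocols. The deposited table holds raw read counts per barcode; the sources used here do not give the counting tool. The authors' deposited log2 expression values per element served as an alternative only. The deposited table of designed oligos links 100000 barcodes to elements and gives other information, such as names and sequences, per the file headers. The authors' own comparisons were not used here. Element positions were taken 50 bp inside each named region in mm9, the build in the submitters' processing notes; an annotation of that build was not used here, so elements were not assigned to genes.

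Counts were summed over barcodes. A minimum of 10 counts in every DNA library was required of an element, and a pseudocount of 0.5 was used in ratios. Pairs of changed element and parent were fitted with edgeR 4.0.16 in R 4.3.3 (TMM, quasi-likelihood test of allele by cDNA against DNA), without a replicate block, over all 13717 pairs. Barcode units (at least 3 per allele, averaged over replicates) were tested with limma 3.58.1; DESeq2 1.42.0 was an alternative, and 192 members could be tested over barcodes. The scripts were tested on simulated data. Replicate pools are the replicates, and SEs over elements are descriptions. PCR reads without molecular identifiers are not independent molecules, so the counting error understates the error.

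cDNA and DNA of 1 number come from the same pool of retinas, per the labels, which pairs them; the correlation of their deviations from the group means was -0.04 to 0.05. Named were, per promoter, the 5 largest falls and rises passing both tests with 1 sign in all replicates, the 3 most active parents, and the 3 largest promoter differences each way. The 10 members on chromosome 18 are counted but not named. The members and lists were chosen with earlier results of these data known.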

Additional observations from a re-analysis of the deposited data

Results flagged for a closer look

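By edgeR's test of the difference itself, 37 members had a lower effect on pCrx and 30 a higher one. Only the 3 largest in each direction, 6 members, are listed here (pCrx minus pRho, log2), chromosome 18 aside. Lower on pCrx were TAATTG at chr15:9011036-9011135 with -1.74 ± 0.21 (SE, adjusted p = 1.29e-09), TAATTA at chr1:134617979-134618078 with -1.43 ± 0.18 (adjusted p = 8.07e-09) and CAATTA at chr9:107580753-107580852 with -1.15 ± 0.25 (adjusted p = 0.000234). Higher on pCrx were TAATTG at chr9:47587488-47587587 with 1.49 ± 0.19 (adjusted p = 1.05e-08), TAATTA at chr6:61161535-61161634 with 1.35 ± 0.20 (adjusted p = 2.38e-07) and TAATTA at chr3:51290891-51290990 with 1.26 ± 0.25 (adjusted p = 5.3e-05). The difference at chr9:107580753-107580852 had an adjusted p of 0.115 by limma over barcodes, and that at chr3:51290891-51290990 one of 0.0926. Both lie in weak parents: the first had pCrx activity of -2.47, -2.58 and -1.99 before A73G and -2.82, -2.54 and -2.75 after it, and the second -4.42, -3.79 and -3.86 before A26G and -2.75, -3.30 and -2.74 after.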

How the results depend on the processing

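With the replicate block, in which cDNA and DNA of a number form a pair, 121 members passed on pRho, 101 on pCrx and 70 for the promoter difference, against 117, 101 and 67 without it, so the pairing changed no count by much. With limma over barcodes the counts were 41, 57 and 20. Without 1 replicate at a time they were 95 to 110, 78 to 84 and 46 to 54. The mean effect on pRho was -0.18 without each element's barcode of highest ratio and -0.16 as a median. On pCrx it was -0.22 with the authors' deposited log2 values and -0.22 as a median. The difference between K50 and other regions on pRho was 0.18 as a median, 0.18 without dimer regions and 0.12 with class taken from sequence. For parents above the median activity it was -0.013 (SE 0.10 over regions). The replicates there gave -0.06, -0.01 and 0.03, so the sign was not steady. Other splits were chosen after seeing the data: it was 0.47 for parents at or below the median, and 0.17 above and 0.23 at or below it by activity on pCrx. On pCrx it was 0.065 without dimer regions, and 0.038 above and 0.29 at or below the median by activity on pRho. Q50 minus K50 in the same region was 0.23 on pRho and 0.085 on pCrx as a median. Leaving out 1 replicate, the mean effects were -0.19 to -0.19 on pRho and -0.24 to -0.23 on pCrx, the K50 differences 0.19 to 0.22 and 0.11 to 0.18, and the same-region differences 0.28 to 0.31 and 0.17 to 0.21. Among members named, the pRho effect at chr4:102446572-102446671 reversed to 0.13 with barcodes as units. The pRho call at chr10:80876714-80876813 was lost without replicate 1, without replicate 3 and over barcodes. Other settings kept the side of the threshold in 360 checks of named members, except the promoter differences at chr9:107580753-107580852 and chr3:51290891-51290990, lost over barcodes. Part of these checks could not have differed. Every element passed the filter on DNA counts, so leaving it out changed nothing. The named falls and rises had been chosen partly by limma over barcodes on their promoter. Low cDNA counts of weak parents limit the rises, and regions differ more than replicates do.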
